A study of Mus musculus with 13 samples.

Results

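The nuclear-encoded genes of the mitochondrial respiratory chain and ATP synthase were compared between 2 mouse models of basal cell carcinoma (BCC), a skin tumor driven by the Hedgehog pathway. Members were chosen by symbol: Nduf genes of the a, b, c, s and v series for complex I, Sdha to Sdhd for complex II, Uqcr genes for complex III, Cox4 to Cox8 genes for complex IV and Atp5 genes for complex V. Of 21100 genes in the deposited table, 95 matched and 94 had a value in all 13 tumors, with Cox8c listed without one. The 94 members comprised 46 genes of complex I, 8 of which encode assembly factors, 4 of complex II, 8 of complex III, 19 of complex IV and 17 of complex V. Ndufa4 and Ndufa4l2 were placed in complex IV, where the Ndufa4 protein resides. The genome build behind the table is GRCm39, and symbols are given as the table spells them.

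The GEM-BCC group held 9 intradermal tumors from 7 female Ptch1+/- K14-CreER2 p53fl/fl mice (the recombinase is CreERT2 in the study's text), induced by 3 intraperitoneal injections of 300 µg tamoxifen and 4 Gy of X-rays. In these mice the keratin 14 promoter drives the recombinase, so that p53 is lost in basal keratinocytes and their descendants. The Tp-BCC group held 4 subcutaneous flank tumors from 4 female Ptch1+/-p53fl/fl mice, each inoculated with 2000000 cells. All Tp-BCC tumors descend from a single GEM-BCC tumor, so they are replicates of 1 line, and GEM2 and GEM3 came from the same mouse, as did GEM7 and GEM8. Every GEM-BCC library belonged to batch 1 and every Tp-BCC library to batch 2, so model, tumor site and batch cannot be told apart in any comparison between the groups. RNA was bulk tumor RNA, in which fewer cells of a type and less RNA per cell cannot be told apart.

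The respiratory chain passes electrons from NADH through complex I, or from succinate through complex II, to ubiquinone, on to cytochrome c through complex III and to oxygen through complex IV. Complexes I, III and IV pump protons across the inner mitochondrial membrane, and complex V, the ATP synthase, uses the gradient to make ATP. Each complex except complex II mixes subunits encoded in the nucleus with subunits encoded in mitochondrial DNA. The mitochondrial transcripts were not analysed here.

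Library totals ran from 28075300 to 32629100 expected counts in GEM-BCC and from 15388000 to 17494900 in Tp-BCC. The 6 markers of the tumor epithelium (Krt5, Krt14, Krt17, Trp63, Epcam and Gli1) were present in every tumor, at summed levels of 11825 to 17327 CPM (counts scaled to a common library size) in GEM-BCC. The same sum was 9025 in TP1, 16177 in TP2, 8391 in TP3 and 20819 CPM in TP4. The 15 skeletal muscle markers summed to 3.68 to 10.2 CPM in GEM-BCC, and to 8.12 in TP1, 16.6 in TP2, 11.3 in TP3 and 164 CPM in TP4; 8 of them, Acta1 and Ckm included, were at 0 in at least 1 tumor. The 7 white adipocyte markers summed to 32.4 to 57.4 CPM in GEM-BCC and to 45.9, 227, 39.1 and 89.96 CPM in TP1 to TP4, and Plin1, Cidec and Lep were at 0 in at least 1 tumor. The part of these cells in the levels below was not tested. Across all 14390 tested genes, Spearman's rho between a gene's GC content and its deviation from its mean ranged from -0.32 to 0.36 in GEM-BCC, was 0.60 in TP2 and in TP4, and was -0.40 in TP1 and -0.48 in TP3, as a description of the libraries.

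Few members differed between the models. Of the 91 members that passed the filter of 10 counts in at least 4 tumors, 6 were higher in Tp-BCC at an adjusted p under 0.05, which is 6.59% of them against 11.1% of all tested genes. A single member, Atp5e, was lower, 1.10% against 8.35% of all tested genes. No member had an absolute log2 fold change above 2 with an adjusted p under 0.05, a result that 5.57% of all tested genes gave. An unadjusted p under 0.05 in edgeR was reached by 16 members, 17.6% against 34.5% of all tested genes, and DESeq2 called 11 members at an adjusted p under 0.05 without a limit on the fold, 12.1% against 26% of all tested genes. The median log2 fold change was 0.07 over the 91 members, 52 of them positive, and -0.03 over all tested genes. The sign of the members' median turned with single tumors and with the scaling. It was -0.19 without TP4, with 35 members positive, -0.02 without TP2, -0.01 without GEM1 and -0.03 with library-size scaling, and it was 0.16 when TP1, TP3 or GEM3 was the tumor left out. The 95% interval of the fold change lay within -1 and 1 for 55 members, 60.4% of those tested, against 35.2% of all tested genes, and the remaining members allow a 2-fold difference in at least one direction.

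**Figure D1:**
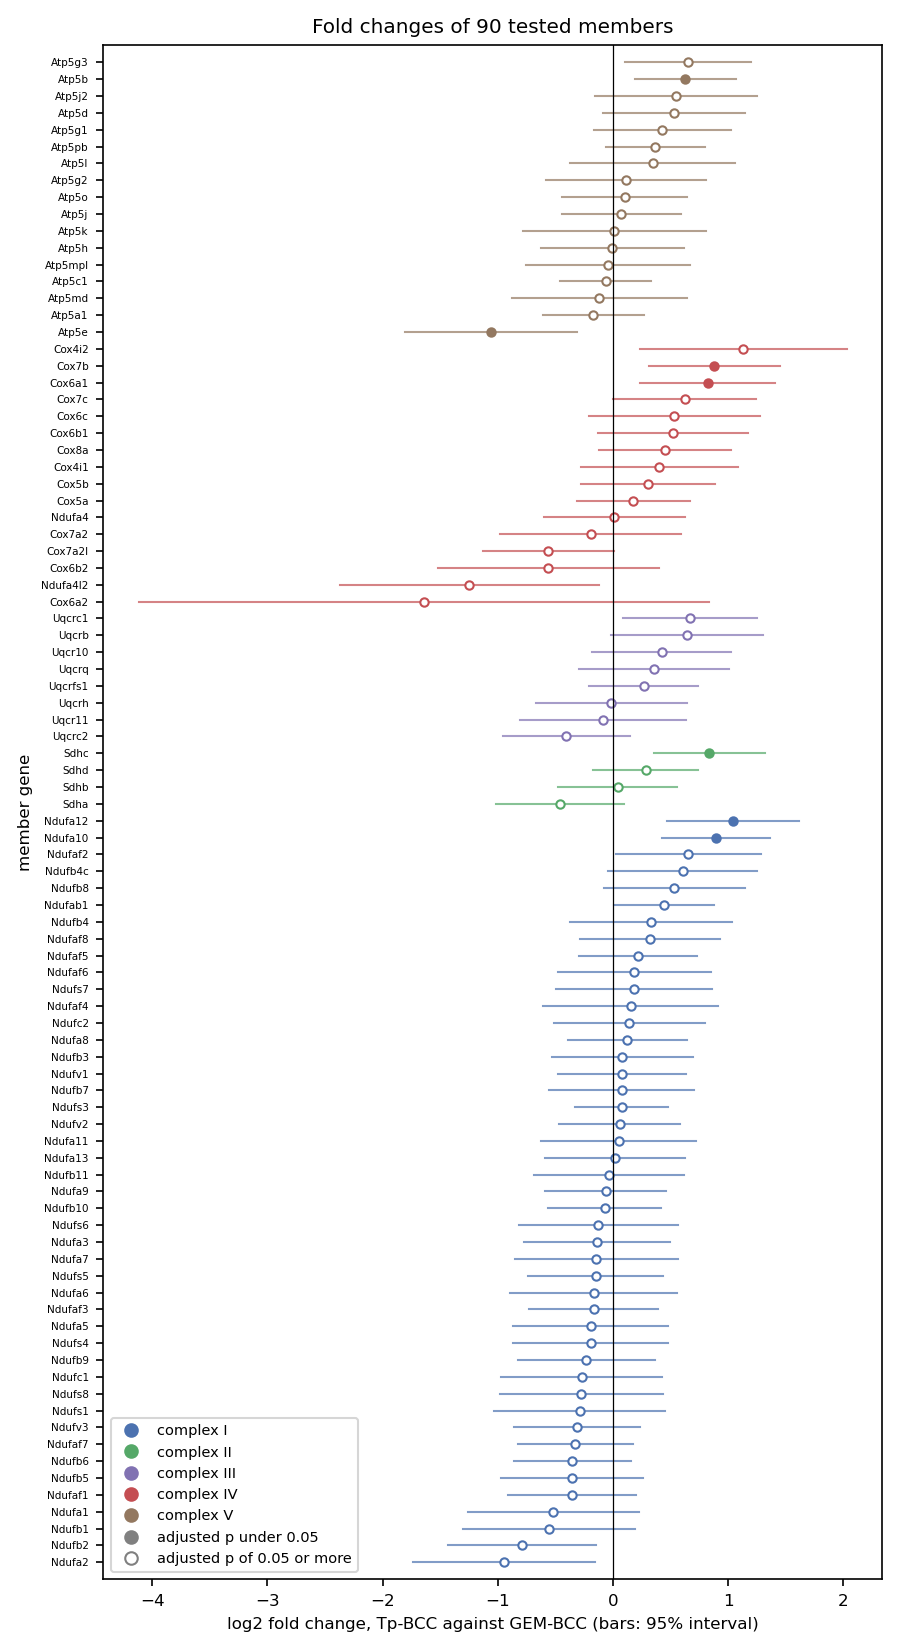
Log2 fold change of Tp-BCC against GEM-BCC (x axis) for 90 of the 91 tested members (y axis), grouped by complex, with 95% intervals as bars and filled points for an adjusted p under 0.05. The 7 filled points are Ndufa12, Ndufa10, Cox7b, Sdhc, Cox6a1, Atp5b and Atp5e, and Cox6a2 has the widest interval.

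Complex I oxidizes NADH. Its 7 catalytic core subunits had a median log2 fold change of 0.08 and none passed the test, and neither did the 8 assembly factors, whose median was 0.17. Among the 31 accessory subunits, 2 were higher in Tp-BCC and the median log2 fold change was -0.13. Ndufa10, an accessory subunit of the membrane arm, had log2 CPM values of 6.70, 7.16, 6.58 and 6.93 in TP1 to TP4, and 5.17 at the lowest, 5.83 at the median and 6.53 at the highest in GEM-BCC. Every Tp-BCC tumor lay above every GEM-BCC tumor, though by a narrow gap to GEM3, and Ndufa10 was the sole member of which that held, 1.10% of those tested against 9.95% of all tested genes in either direction. Its log2 fold change was 0.90 (SE 0.22, adjusted p = 0.0110, edgeR quasi-likelihood test). Ndufa12, an accessory subunit of the arm that protrudes into the matrix, was at 5.96, 6.46, 5.74 and 6.99 log2 CPM in TP1 to TP4 against 4.98, 5.18 and 6.29 for the lowest, median and highest GEM-BCC tumor. Its groups overlapped only through GEM3, and its log2 fold change was 1.04 (SE 0.27, adjusted p = 0.0147, edgeR quasi-likelihood test). Near-identical sequence elsewhere covers 17.7% of the 100-base words of its transcript, so part of the reads of Ndufa12 may be shared with another gene.

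The largest negative values of complex I were those of Ndufa2 and Ndufb2, both accessory subunits, chosen here after their values were seen. Ndufa2 was at 4.51, 5.32, 4.60 and 5.70 log2 CPM in TP1 to TP4 and between 5.38 and 7.35 in GEM-BCC (log2 fold change -0.94, adjusted p = 0.0848, edgeR quasi-likelihood test). For Ndufb2 the log2 fold change was -0.79 (adjusted p = 0.0771, edgeR quasi-likelihood test). Neither passed the test.

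Complex II, the succinate dehydrogenase shared with the tricarboxylic acid cycle, contributed 1 of its 4 genes. Sdhc, which anchors the enzyme in the membrane, was at 6.61, 7.36, 6.26 and 7.30 log2 CPM in TP1 to TP4, and at 5.57, 6.05 and 6.55 in the lowest, median and highest GEM-BCC tumor. TP1, TP2 and TP4 lay above all GEM-BCC tumors and TP3 lay among them. The log2 fold change of Sdhc was 0.84 (SE 0.23, adjusted p = 0.0184, edgeR quasi-likelihood test). Its partner anchor Sdhd had a log2 fold change of 0.29, the iron-sulfur subunit Sdhb one of 0.04 and the flavoprotein Sdha one of -0.46, and none of the 3 passed the test.

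None of the 8 complex III genes matched by symbol passed the test, and their median log2 fold change was 0.31. Cyc1 encodes cytochrome c1, a complex III subunit whose symbol was not among those matched. It rose in Tp-BCC (log2 fold change 0.83, adjusted p = 0.0384, edgeR quasi-likelihood test) and is counted with the other gene lists below. The core proteins Uqcrc1 and Uqcrc2, which face the matrix and are related to processing peptidases, had fold changes of opposite sign. Uqcrc1, the most abundant complex III member by CPM, was at 7.69, 8.67, 7.53 and 9.05 log2 CPM in TP1 to TP4 and between 7.10 and 8.13 in GEM-BCC (log2 fold change 0.67, adjusted p = 0.0958, edgeR quasi-likelihood test). Uqcrc2 was at 7.36, 6.28, 7.27 and 5.97 log2 CPM in TP1 to TP4 and between 6.65 and 7.65 in GEM-BCC (log2 fold change -0.41, adjusted p = 0.284, edgeR quasi-likelihood test). Thus TP2 and TP4 were the highest 2 of the 4 Tp-BCC tumors for Uqcrc1 and the lowest 2 for Uqcrc2.

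In complex IV, cytochrome c oxidase, 10 of the 11 ubiquitous subunits had a positive log2 fold change, with a median of 0.45, and 2 passed the test. Among all tested genes, 6990 of 14390 had a positive one. Across alternative processing and choices of tumors, the sign turned for Cox4i1 (-0.18 to 0.82), Cox6b1 (-0.03 to 0.92) and Ndufa4 (-0.24 to 0.88). It held for Cox6a1, Cox7b and Cox8a. Cox6a1, the isoform of subunit 6a outside heart and skeletal muscle, was at 7.50, 8.21, 7.58 and 8.50 log2 CPM in TP1 to TP4 and at 6.50, 7.05 and 8.07 in the lowest, median and highest GEM-BCC tumor. TP2 and TP4 lay above all GEM-BCC tumors, and TP1 and TP3 below GEM3. The log2 fold change of Cox6a1 was 0.82 (SE 0.28, adjusted p = 0.0475, edgeR quasi-likelihood test). Cox7b, a small structural subunit, was at 7.25, 7.10, 7.12 and 7.96 log2 CPM in TP1 to TP4 against 5.95, 6.38 and 7.56, and GEM3 was again the sole GEM-BCC tumor within the Tp-BCC range. Its log2 fold change was 0.88 (SE 0.27, adjusted p = 0.0322, edgeR quasi-likelihood test). Cox4i1, the ubiquitous isoform of subunit 4 and the complex IV gene with the highest level per length (593 CPM per kb of transcript), had a log2 fold change of 0.40 (adjusted p = 0.393, edgeR quasi-likelihood test).

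In complex V, the 5 genes of the catalytic head, F1, gave 1 call in each direction. Atp5b, the catalytic beta subunit, was at 10.03, 10.27, 9.58 and 10.21 log2 CPM in TP1 to TP4 and at 9.05, 9.36 and 10.001 in the lowest, median and highest GEM-BCC tumor. TP3 lay below the highest GEM-BCC tumor, GEM5, and the other 3 lay above it. The log2 fold change of Atp5b was 0.63 (SE 0.21, adjusted p = 0.0441, edgeR quasi-likelihood test), while its partner Atp5a1, the alpha subunit, had one of -0.17 (adjusted p = 0.588, edgeR quasi-likelihood test). Atp5a1 had the highest CPM of all members in the mean over the 13 tumors (858 against 799 for Atp5b). Atp5b was higher than Atp5a1 in every Tp-BCC tumor and, among the GEM-BCC tumors, in GEM5 and GEM9. Atp5e, the small epsilon subunit of the central stalk, was at 4.69, 5.72, 4.90 and 6.30 log2 CPM in TP1 to TP4 and at 5.83, 6.57 and 7.63 in GEM-BCC. TP1, TP2 and TP3 lay below every GEM-BCC tumor and TP4 among them. Its log2 fold change was -1.06 (SE 0.35, adjusted p = 0.0460, edgeR quasi-likelihood test).

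**Figure D2:**
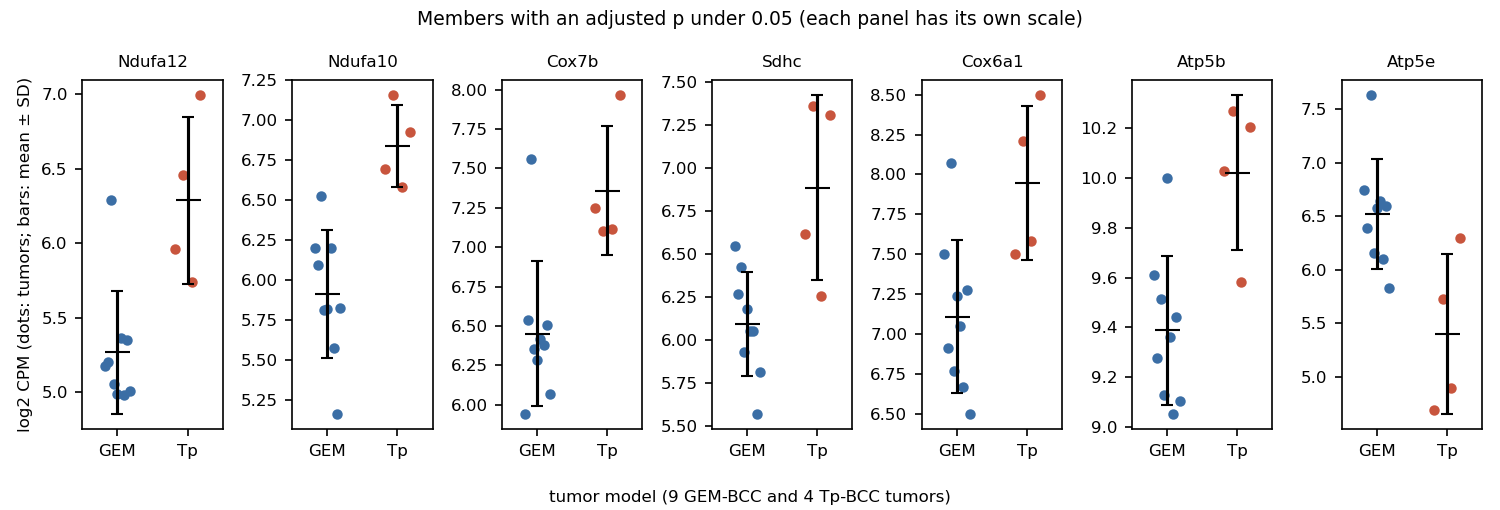
Log2 CPM (y axis, a separate scale in each panel) of the 7 members with an adjusted p under 0.05, in 9 GEM-BCC (blue) and 4 Tp-BCC (red) tumors, with the mean and SD as bars. The groups do not overlap for Ndufa10 and overlap for the other 6.

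Each of these 7 calls was lost when at least 1 tumor was left out. Without TP2 edgeR called 0 members in either direction, against 10.8% of all tested genes, with 8 higher and 4 lower at an unadjusted p under 0.05, and the adjusted p of Ndufa10 was 0.0652. Without TP4, 1 was higher and 2 were lower, and without GEM3, 14 were higher and 1 lower, while 12.8% and 21.1% of all tested genes were called. Ndufa12 lost its call without TP4 (adjusted p = 0.0973, edgeR) and without TP2 (adjusted p = 0.0543), and Sdhc without TP2 (adjusted p = 0.108) and without TP4 (adjusted p = 0.0800). Cox7b was lost without any of TP2, TP4, GEM1, GEM4, GEM5, GEM6, GEM7 and GEM9 (adjusted p of 0.0512 to 0.184, edgeR), and Atp5e without any of TP1, TP2, TP3, GEM2, GEM5, GEM6 and GEM8 (0.0571 to 0.118). Cox6a1 was lost without any tumor other than GEM3, TP1 and TP3 (0.0583 to 0.215), and Atp5b without any other than GEM5 and TP3 (0.0577 to 0.182). With GEM3 and TP4 both left out, 6 members were higher and 3 lower, and Ndufa10, Ndufa12, Cox7b and Cox6a1 were among the 6, while 15.1% of all tested genes were called. With counts summed per mouse, which joins GEM2 with GEM3 and GEM7 with GEM8, Atp5b (adjusted p = 0.0711, edgeR) and Atp5e (adjusted p = 0.0528, edgeR) lost their calls and Cox4i2, a tissue-restricted isoform of complex IV, gained one (adjusted p = 0.0464, edgeR), so that 6.59% of members and 18.1% of all tested genes were called.

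The promoters of 77 of the 94 members were matched by symbol in RefSeq (GRCm38.p6, 250 bases before to 50 bases after the annotated start). They were searched on both strands for GCATGCGC of nuclear respiratory factor 1 (NRF1), CCGGAAG of GABPA, AAGATGGC of YY1 and GGGCGG of Sp1, factors known to act on genes of this family. The NRF1 letters were in 15.6% of the members' promoters and in 5.50% of those of all tested genes with a match, the GABPA letters in 24.7% and 18.4%, the YY1 letters in 14.3% and 4.73%, and the Sp1 letters in 45.5% and 66.9%. Over all promoters of that length the shares were 3.05%, 9.93%, 3.19% and 38.2%. Shown are the promoter of the member whose groups did not overlap, that of a called complex IV member that holds the letters of 3 of the 4 factors, and that of the sole member that was lower, each read 5′ to 3′ along its gene with the matched letters in capitals. They are chr1:92473709-92474008 for Ndufa10, chr5:115348909-115349208 for Cox6a1 and chr2:174464052-174464351 for Atp5e, all on the minus strand.
Ndufa10: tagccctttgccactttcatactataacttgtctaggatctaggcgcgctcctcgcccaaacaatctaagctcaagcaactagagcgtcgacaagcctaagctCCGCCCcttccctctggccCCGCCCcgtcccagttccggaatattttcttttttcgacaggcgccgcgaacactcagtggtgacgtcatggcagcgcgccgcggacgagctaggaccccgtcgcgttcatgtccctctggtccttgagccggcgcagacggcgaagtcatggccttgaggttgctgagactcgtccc
Cox6a1: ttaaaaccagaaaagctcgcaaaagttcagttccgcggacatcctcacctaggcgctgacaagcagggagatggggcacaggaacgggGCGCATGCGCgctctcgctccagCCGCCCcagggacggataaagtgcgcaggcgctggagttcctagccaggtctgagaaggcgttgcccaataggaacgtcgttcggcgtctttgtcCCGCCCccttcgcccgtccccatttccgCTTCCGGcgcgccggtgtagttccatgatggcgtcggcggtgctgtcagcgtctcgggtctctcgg
Atp5e: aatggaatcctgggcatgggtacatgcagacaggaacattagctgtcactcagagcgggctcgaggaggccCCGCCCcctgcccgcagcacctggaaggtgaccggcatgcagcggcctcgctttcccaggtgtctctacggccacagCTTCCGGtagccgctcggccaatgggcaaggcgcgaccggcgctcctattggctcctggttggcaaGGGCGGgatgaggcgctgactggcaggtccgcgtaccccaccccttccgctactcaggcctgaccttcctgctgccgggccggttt
Ndufa10 held Sp1 letters alone, Cox6a1 held NRF1, GABPA and Sp1 letters, with NRF1 matches on both strands that overlap each other, and Atp5e held GABPA and Sp1 letters. A match describes the letters and not a site in use.

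Within each model a single tumor stood above the rest for most members. GEM3 was the highest of the 9 GEM-BCC tumors for 76 of the 91 members (83.5%), against 20.6% of all tested genes, and lay above the gene's mean for 89 of them, the exceptions being Ndufaf1 and Atp5b. The median deviation of the members from their own means was 0.92 in GEM3 on the log2 scale and at most 0.07 in the other GEM-BCC tumors. The members took up 1.64% of all counts in GEM3 and 0.75% to 1.06% in the other 8 GEM-BCC tumors. GEM2, from the same mouse as GEM3, was lower than GEM3 for 84 of the 91 members, by a median of 0.87 on the log2 scale, whereas GEM7 and GEM8 differed by a median of 0.16. In GEM3, Spearman's rho between transcript length and deviation was -0.59 over the members and -0.42 over all tested genes, so that short transcripts stood higher in both, and the part of this in the members' levels was not tested.

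Among the Tp-BCC tumors, TP4 was the highest for 75 members (82.4%, against 36.9% of all tested genes). Both TP2 and TP4 lay above both TP1 and TP3 for 73 members (80.2%, against 43.6% of all tested genes), and both lay below for 6 (6.59%, against 35.9%). The median deviation of the members was -0.16 in TP1, 0.22 in TP2, -0.34 in TP3 and 0.63 in TP4. The TMM scaling factors were 1.08, 0.89, 1.09 and 0.83 in TP1 to TP4, and a lower factor raises the CPM of every gene in that tumor. As a share of all counts, without these factors, the members took up 1.00%, 1.13%, 0.90% and 1.29%. TP2 and TP4 also had the higher sums of epithelial, skeletal muscle and white adipocyte markers in CPM and the positive rho with GC content given above. The 6 fibroblast markers likewise summed to 23111 and 28041 CPM in TP2 and TP4 against 15545 and 15810 CPM in TP1 and TP3, and the 6 pericyte and smooth muscle markers to 1737 and 1965 against 987 and 1014 CPM. The 5 T cell markers summed to 1.67 and 1.86 against 1.06 and 1.26 CPM. The sums of endothelial, macrophage and erythroid markers did not follow this order. In TP1 to TP4 the 5 endothelial markers summed to 273, 311, 268 and 212 CPM. The 5 macrophage markers summed to 99.8, 97.2, 101 and 132 CPM, and the 2 erythroid markers with a value to 38.6, 43.7, 50.9 and 117 CPM. The part of any of these values in the members' levels was not tested. The mitochondrial ribosome, a list of 78 genes for the translation of mitochondrial messages, had the same 2 tumors at its top, with a median deviation of 0.66 in GEM3 and 0.62 in TP4. For the 19 genes of the tricarboxylic acid cycle and pyruvate dehydrogenase the median deviation was 0.17 in GEM3 and -0.08 in TP4.

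**Figure D3:**
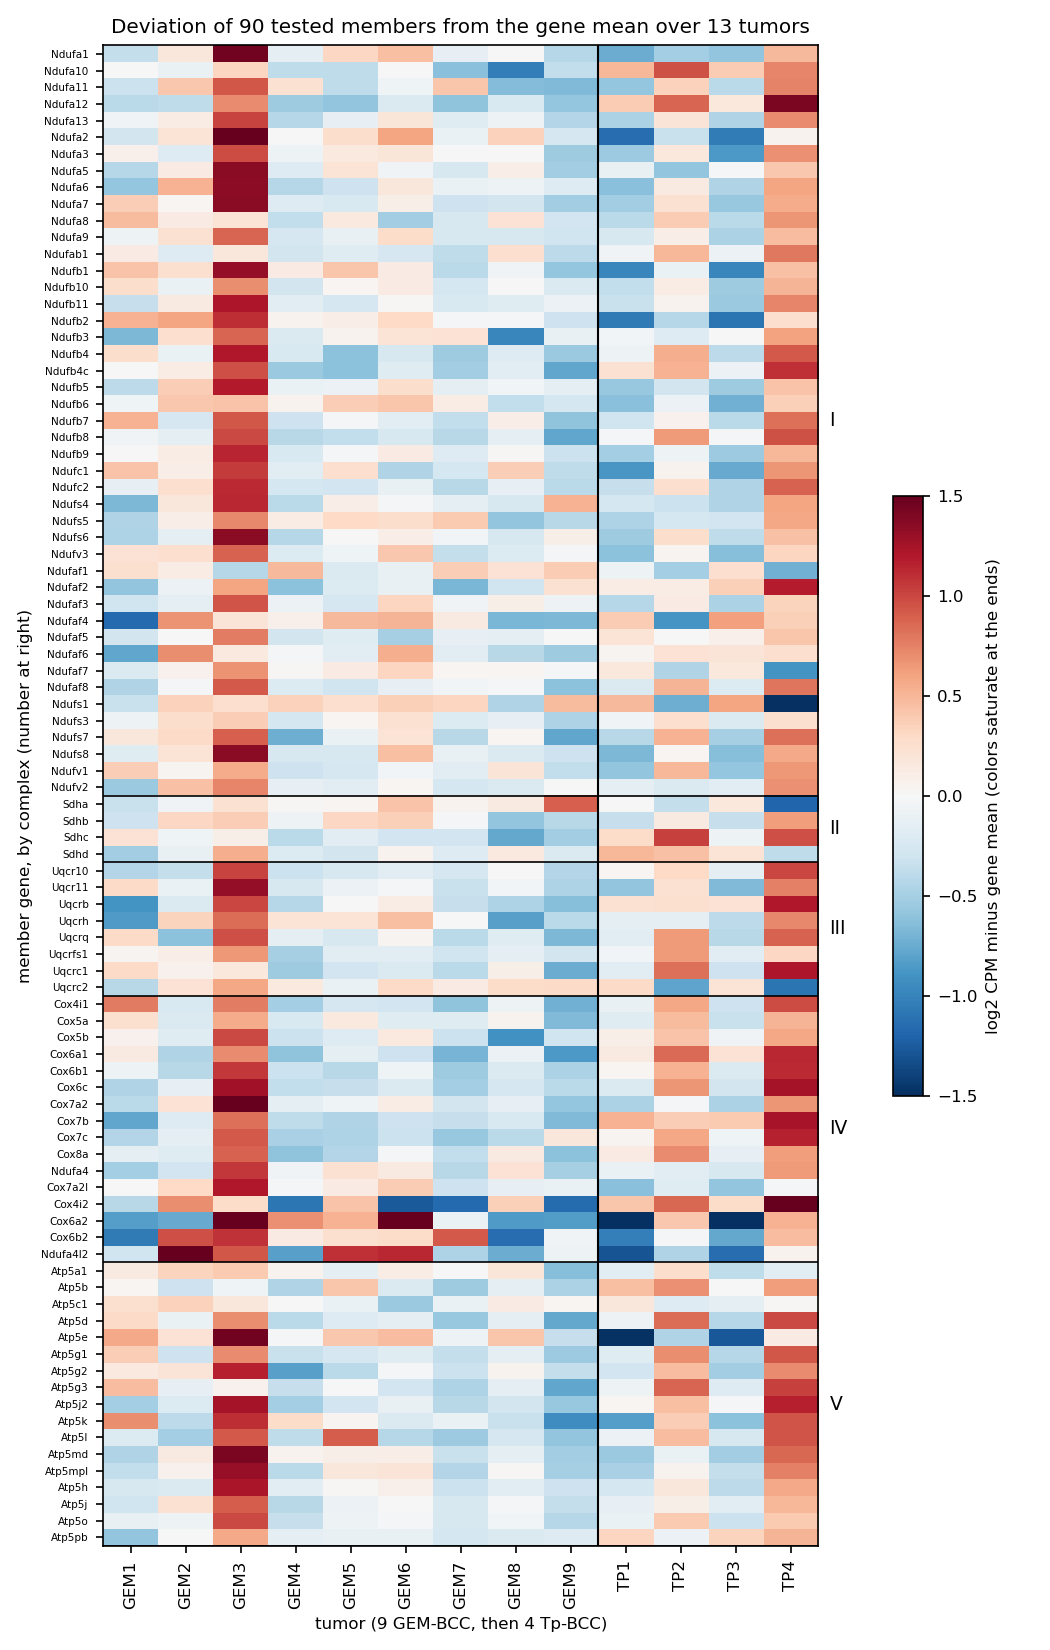
Log2 CPM minus the gene's mean over 13 tumors (color, saturating at the ends of the scale) for 90 of the 91 tested members (rows, by complex) in 9 GEM-BCC and 4 Tp-BCC tumors (columns). GEM3 and TP4 are red for most rows, and Ndufs1, Sdha and Uqcrc2 are blue in TP4.

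The 6 members that ran the other way in TP2 and TP4 were Ndufs1, the largest core subunit of complex I, Sdha, Uqcrc2 and the assembly factors Ndufaf1, Ndufaf4 and Ndufaf7. Ndufs1 was at 6.44, 5.22, 6.55 and 4.04 log2 CPM in TP1 to TP4 and between 5.51 and 6.43 in GEM-BCC, so that TP2 and TP4 lay below every GEM-BCC tumor and TP1 and TP3 above. Sdha was at 6.35, 5.99, 6.50 and 5.16 log2 CPM in TP1 to TP4 and from 6.01 to 7.24 in GEM-BCC. The SD of Ndufs1 was 1.18 among Tp-BCC and 0.33 among GEM-BCC tumors. The transcripts of these 6 had a median GC content of 46.0% and a median length of 2261 bases, against 51.6% and 763 bases for the other members. With the trend on GC content taken out of each tumor's values, 10 members were higher and 3 lower in Tp-BCC, and with the trend on length taken out, 13 were higher and 5 lower. Calls over all tested genes were also more frequent, at 29.2% against 14.3% of members without the GC content trend and at 26.2% against 19.8% of members without the length trend.

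**Figure D4:**
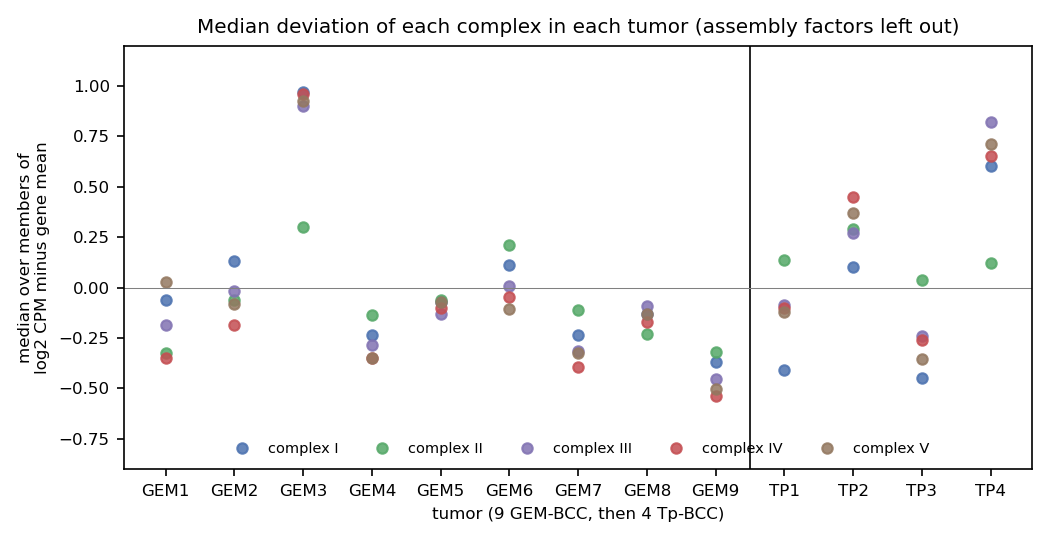
Median over each complex's tested genes (assembly factors left out) of log2 CPM minus the gene's mean (y axis) in 13 tumors (x axis). Each complex has 1 color. GEM3 is the highest GEM-BCC tumor for all 5 complexes, and complex II has the narrowest range.

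The mean over tumors of a complex's median log2 CPM was higher in Tp-BCC by 0.05 to 0.25, a description with no test. For complex I it was 5.98 ± 0.33 (SD, n = 9) in GEM-BCC and 6.04 ± 0.48 (SD, n = 4) in Tp-BCC. The sign for complex I turned with the measure: the difference was -0.02 with library-size scaling and -0.05 for the median deviation from the gene's mean. These medians leave out the assembly factors. That of complex IV covers its 16 tested genes: the 11 ubiquitous subunits, 4 tissue-restricted isoforms and 1 supercomplex factor. With the assembly factors included, 24 of the 46 complex I genes had a negative log2 fold change, with a median of -0.05. Complex II gave 6.23 ± 0.22 and 6.47 ± 0.09, complex III 6.21 ± 0.45 and 6.46 ± 0.39, complex IV 6.64 ± 0.38 and 6.86 ± 0.39, and complex V 7.40 ± 0.36 and 7.64 ± 0.49, with the same numbers of tumors. Per kb of transcript, the highest mean level over the 13 tumors was that of Ndufa11 in complex I (320 CPM per kb), Sdhd in complex II (69.8), Uqcrh in complex III (257), Cox4i1 in complex IV and Atp5g2 in complex V (520). Within a model the order differed in complexes II and V: Sdhb (67.3 CPM per kb) lay above Sdhd (65.4) in the mean of GEM-BCC, and Atp5l (575) and Atp5b (552) above Atp5g2 (549) in that of Tp-BCC. Sequence elsewhere covers 61.3% of the 100-base words of the Atp5l transcript, so part of the reads of Atp5l may be shared with other genes.

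Several complex IV and complex V subunits exist as isoforms from different genes, and 9 log2 ratios of such pairs were compared by an exact two-sided permutation test over all ways of choosing 4 of 13 tumors. None passed after adjustment over the 9 ratios, and the smallest adjusted p was 0.157. The ratio of Cox6a2, the heart and muscle isoform, to Cox6a1 was -8.82 ± 1.15 (SD, n = 9) in GEM-BCC and -10.60 ± 0.90 (SD, n = 4) in Tp-BCC, a difference of -1.78 (exact permutation p = 0.0238). Cox6a2 had 0, 4, 0 and 4 counts in TP1 to TP4, and 2 to 5 counts in GEM1, GEM2, GEM7, GEM8 and GEM9. In these tumors of both models the ratio lies near the floor set by the prior count of 2. There it depends largely on that prior and on the level of Cox6a1. For Cox6b2, the testis isoform, to Cox6b1 the ratio was -4.69 ± 0.86 and -5.71 ± 0.24, a difference of -1.01 (exact permutation p = 0.0448). Ndufa4l2, a relative of Ndufa4 known to be induced by hypoxia, had ratios to Ndufa4 of -1.29 ± 1.00 and -2.36 ± 0.40, a difference of -1.07 (exact permutation p = 0.0615). Cox4i2, the isoform of subunit 4 known from lung and from hypoxic cells, had ratios to Cox4i1 of -6.18 ± 0.75 and -5.39 ± 0.20, a difference of 0.79 (exact permutation p = 0.0699). Thus these 2 genes, both linked to low oxygen, had differences of opposite sign, and neither passed the test.

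**Figure D5:**
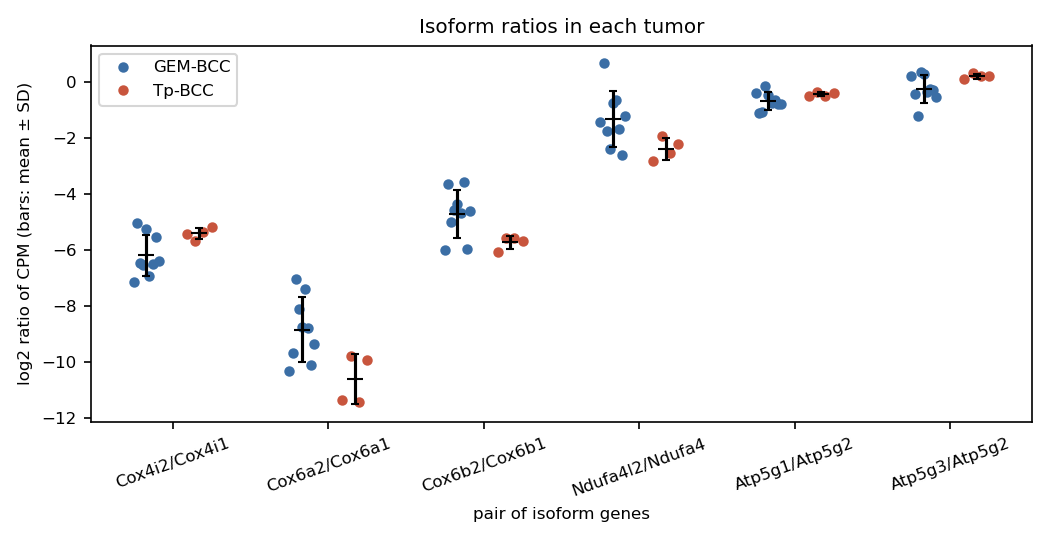
Log2 ratio of CPM (y axis) for the 6 isoform pairs with both genes tested (x axis) in 9 GEM-BCC (blue) and 4 Tp-BCC (red) tumors, with the mean and SD as bars. The tumors of both models overlap for every pair.

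Ndufa4l2 itself was at 3.51, 4.35, 3.65 and 4.86 log2 CPM in TP1 to TP4 and at 3.99, 4.73 and 6.84 in the lowest, median and highest GEM-BCC tumor (log2 fold change -1.25, SE 0.53, adjusted p = 0.108, edgeR quasi-likelihood test). Cox4i2 was at 3.18, 3.63, 3.04 and 4.51 log2 CPM against 1.499, 2.34 and 3.46 (log2 fold change 1.13, SE 0.42, adjusted p = 0.0704, edgeR quasi-likelihood test). The Atp5g genes encode the same mature c-ring protein of ATP synthase. The log2 ratio of Atp5g1 to Atp5g2 differed between the models by 0.24 (exact permutation p = 0.169). That of Atp5g3 to Atp5g2 differed by 0.46 (exact permutation p = 0.108), and neither passed the test.

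The muscle isoforms and Cox7b2, a testis isoform, had few counts, whereas the testis isoform Cox6b2 had 66 to 320 in GEM-BCC and 39, 72, 46 and 92 in TP1 to TP4. Cox7a1 had 3 to 16 counts in GEM-BCC and 1, 4, 2 and 0 counts in TP1 to TP4, Cox8b had 0 to 15 and then 0, 5, 0 and 2, and Cox7b2 had 0 to 2 and then 1, 3, 1 and 4. These 3 were the members that did not pass the filter, and their ratios are given no further reading. Cox6a2 had 63 counts in GEM3, 2 to 24 in the other GEM-BCC tumors, and 0, 4, 0 and 4 in TP1 to TP4. In TP4, the tumor with the highest sum of skeletal muscle markers, the muscle isoforms Cox6a2, Cox7a1 and Cox8b were thus at 4, 0 and 2 counts.

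Other gene lists that serve the same chain were counted in the same fit, in which 11.1% of all tested genes rose and 8.35% fell. Cyc1 and Cycs, cytochrome c1 and cytochrome c, rose in Tp-BCC, by 0.83 (adjusted p = 0.0384) and 0.67 (adjusted p = 0.0421, edgeR quasi-likelihood test) in log2 fold change. They were 2 of 7 tested genes (28.6%) of the list of electron carriers and subunits not matched by symbol. Of 42 tested assembly factors, 3 rose and 3 fell, 7.14% each; Acad9, which assembles complex I, fell by 1.16 on the log2 scale (adjusted p = 0.0186, edgeR quasi-likelihood test). Among the 19 genes of the tricarboxylic acid cycle and pyruvate dehydrogenase, 3 rose (15.8%), the mitochondrial Idh2 among them (log2 fold change 1.03, adjusted p = 0.00322, edgeR quasi-likelihood test), and none fell. In the mitochondrial ribosome 3 of 78 rose (3.85%) and none fell, with a median log2 fold change of 0.21. Of 16 biogenesis factors, 3 rose (18.8%) and 1 fell (6.25%). Pprc1, the most abundant of the 3 by CPM, rose by 0.97 on the log2 scale (adjusted p = 0.0143, edgeR quasi-likelihood test). Its mean was 84.2 CPM in GEM-BCC and 164 CPM in Tp-BCC. Ppargc1b, chosen here after its values were seen, had a log2 fold change of 0.17 and did not pass the test. Polrmt, the mitochondrial RNA polymerase, rose by 1.00 (adjusted p = 0.00687, edgeR quasi-likelihood test), and Ppargc1a, a coactivator of mitochondrial genes, fell by 3.72 on the log2 scale (adjusted p = 0.0152, edgeR quasi-likelihood test), from a mean of 1.301 CPM in GEM-BCC to 0.0933 CPM in Tp-BCC. Ppargc1a is also a marker of brown adipocytes, and the 3 such markers with a value (Ppargc1a, Cidea and Elovl3) summed to 1.31 to 11.7 CPM in GEM-BCC and to 0.118, 1.29, 0.239 and 0.0714 CPM in TP1 to TP4. Of these, Cidea fell by 3.50 on the log2 scale (adjusted p = 0.0426, edgeR quasi-likelihood test), Elovl3 had means of 0.356 and 0.0460 CPM and did not pass the filter, and both were at 0 in at least 1 tumor. The part of such cells in the value of Ppargc1a was not tested. The factors Nrf1 (log2 fold change 0.10), Gabpa (-0.30), Yy1 (-0.27) and Tfam (-0.38) did not pass the test.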

How the data were processed

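Poly(A)-selected RNA of 13 bulk tumors was sequenced. The authors aligned reads to GRCm39 with Bowtie2 2.3.4.3 and estimated expected counts per gene with RSEM 1.3.1, per the labels, and deposited the expected counts unrounded in a table of 21100 genes without further normalization; 16687 genes had a value in all 13 tumors. Expected counts split reads between near-identical genes, and 15 members share over 5% of their 100-base words with another gene (GENCODE vM21 transcripts).

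Counts were rounded, and 14390 genes that reached 10 counts in 4 or more tumors entered the test. Differences between models were tested with the quasi-likelihood F-test of edgeR 4.0.16 (robust, TMM normalization) in R 4.3.3, with Benjamini-Hochberg adjustment over all tested genes and a threshold of 0.05; log2 CPM used a prior count of 2. The p-values measure the spread between these tumors, 2 pairs of which share a mouse. Isoform ratios were tested by exact permutation, whose smallest p here is 0.0014. DESeq2 1.42.0 was an alternative, as were other scalings, filters, GC content and length trends (lowess span 0.3) and leaving out tumors. Transcript length and GC content were known for 92 members and 99.2% of tested genes. The fit was tested on simulated data, in which many of the log2 changes of 1 put in were not called. A change of that size can thus be missed. The members and gene lists were chosen with earlier results of these data known. Named were members past the threshold with no overlap or a fold above 2 on the log2 scale, the most abundant of each complex (1 member is not reported here), isoform pairs and untested members; Ndufa12, Atp5b, Atp5e, Ndufa2, Ndufb2, Sdhb, Sdhd, Sdha, Uqcrc2, Ndufs1, Ndufa11, Uqcrh, Ndufaf1, Ndufaf4, Ndufaf7, Atp5l, Idh2, Polrmt, Cidea, Elovl3, Nrf1, Gabpa and Tfam were added after their values were seen.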

Additional observations from a re-analysis of the deposited data

Results flagged for a closer look

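The 70 groups of values examined were the medians of the family and its complexes, the named members and the isoform ratios, in each model. In 13 of them the gap of the highest or lowest tumor to the next one passed Dixon's 95% critical value. Chance gives about 1 in 20 for a single group. The groups reuse the same tumors, the medians hold the same members, and some members were named after their values were seen. The flags are thus not independent, and their number cannot be set against that rate. In 11 of the 13 flagged groups the tumor was GEM3, the highest of the 9 GEM-BCC tumors. In the remaining 2 it was TP4, the highest of the 4 Tp-BCC tumors.

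The median deviation of the members was 0.92 in GEM3 and 0.07 in the next tumor. The median log2 CPM in GEM3 was 7.35 for complex III, with the next tumor at 6.30, 7.58 for complex IV, with the next at 6.69, and 8.27 for complex V, with the next at 7.49. Single members in GEM3 were at 8.34 (Cox6b1), 8.31 (Cox7a2), 7.56 (Cox7b), 8.65 (Cox8a), 7.49 (Ndufa4), 9.32 (Atp5g2) and 6.29 (Ndufa12) log2 CPM. In TP4, Cox7b was at 7.96 and the next Tp-BCC tumor at 7.25, and Ndufa4 was at 7.07 with the next at 6.33. GEM3 and GEM2 came from the same mouse, and GEM3 had the highest total of counts of the 13 tumors (32629100).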

How the results depend on the processing

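The counts of members depended on which tumors and corrections were used. Against 6 higher and 1 lower, library-size scaling gave 3 lower, DESeq2 4 lower, counts summed per mouse 0 lower (edgeR, 4 at an unadjusted p under 0.05; Atp5b and Atp5e lost, Cox4i2 gained), removal of the GC content trend 10 higher and 3 lower, and removal of the length trend 13 higher and 5 lower; a log2 fold change above 1 left 1 higher, and above 2 left 0 higher and 0 lower. Of all tested genes, the share lower was 8.21% with library-size scaling, 12.9% with DESeq2 and 8.01% with counts summed per mouse. It was 13.9% without the GC content trend and 10.5% without the length trend, where 15.3% and 15.7% were higher. With each tumor left out in turn, 0 to 14 were higher and 0 to 2 lower. The 14 were found without GEM3, where 11.3% of all tested genes were higher, and the 2 without TP4, where 6.02% were lower. Alternatives chosen after seeing the data were scaling to the members' median (3 lower), leaving out GEM3 and TP4 (3 lower), leaving out TP1 and TP3 (18 higher and 4 lower, 24.2% of members against 42.9% of all tested genes) and leaving out TP2 and TP4 (0 higher, 1 at an unadjusted p under 0.05, and 2 lower). Of all tested genes, 4.2% were lower with scaling to the members' median and 6.83% without GEM3 and TP4. Without TP2 and TP4, 5.87% were higher and 4.51% lower. The cause of the shifts in the counts of members was not tested. The 9 isoform ratios stayed above the threshold under all 15 alternatives of each, with differences for Cox6a2 to Cox6a1 of -2.49 to -2.02 and of -2.06 to -1.51 with a tumor left out. The median log2 CPM of each of the 5 complexes moved by less than the spread among GEM-BCC tumors under both other scalings, and that difference for complex I turned from 0.05 to -0.02 with library-size scaling. No paired analysis was possible because the tumor numbers are not shared between the models.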
